A study of Mus musculus with 52 samples.

Results

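Genes through which capillary endothelium takes up fat from the blood were followed across the RNA libraries of a mouse study of the blood-brain barrier. The 8 members, of 49509 genes with transcripts in the files, are Gpihbp1, Lpl, Cd36, Fabp4, Fabp5, Pparg, Meox2 and Tcf15. They were chosen by name, and each one's reads and TPM (a gene's share of all transcripts, scaled for length and depth) were summed over its transcripts in all 40 RNA libraries. The whole series holds 52 samples, of which the other 12 are ATAC-seq libraries of open chromatin.

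The study asked what happens to endothelial cells (ECs) of leaky vessels in brain and eye when beta-catenin signaling is switched on in them. Of these vessels, its RNA libraries cover those of the pituitary and the choroid plexus. In 24 libraries, tissue of adult males, either cerebellum or one of the pituitary lobes (anterior or posterior), was dissociated and sorted into GFP+ and GFP- fractions. WT animals carried Tie2-GFP, in which Tie2 regulatory sequences drive GFP in ECs. Stabilized animals carried Tie2-GFP, Pdgfb-CreER and BcatEx3fl, so that an EC-restricted, 4-hydroxytamoxifen-dependent Cre removes exon 3 of the beta-catenin gene and leaves a stable protein. The sorted genotypes thus differed in the Cre and in the 100 ug of 4-hydroxytamoxifen given at day 10 as well as in beta-catenin, and these cannot be told apart. Tissue of 20 to 30 mice aged 30 to 90 days was pooled for each pituitary replicate. In the other 16 libraries, ribosome-bound RNA of ECs and the matched input were taken from cortex and choroid plexus of adult males aged 6 to 8 weeks. Here the controls carried RiboTag and Pdgfb-CreER, and the stabilized animals carried BcatEx3fl in addition. Both had been injected with 4-hydroxytamoxifen some weeks earlier. Choroid plexi of 3 to 4 animals were pooled. Each of the 20 RNA groups held 2 libraries, which the study describes as biological replicates, and p-values rest on the spread between them, pooled over the groups of a fit. In bulk RNA fewer cells of a type and less RNA per cell cannot be told apart.

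Triglyceride travels in the blood inside lipoproteins. GPIHBP1, a glycolipid-anchored protein of capillary ECs, picks up lipoprotein lipase (LPL) from the surrounding tissue, carries it to the lumen and holds it there, where the enzyme frees fatty acids. The scavenger receptor CD36 binds those fatty acids at the membrane, and the small binding proteins FABP4 and FABP5 carry them through the cytoplasm. PPAR-gamma is the nuclear receptor best known for switching on such genes in fat cells, and MEOX2 and TCF15 act together as transcription factors of this program in heart and muscle ECs. Brain capillaries with a barrier use another route, the lysolipid transporter MFSD2A.

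The sorted libraries held 12157485 to 37529274 reads in transcripts (median 27638900) and the RiboTag libraries 6409013 to 21399125 (median 10036750), as Salmon estimated them. The sum of 6 endothelial markers (Pecam1, Cdh5, Kdr, Tek, Erg and Cldn5) lay between 599 and 2363 TPM in the 12 GFP+ libraries and between 0.321 and 8.40 in the 12 GFP- libraries. Markers of adipocytes, which make much Fabp4, Cd36 and Pparg, stayed at or under 0.667 TPM in sum in every library, while those of macrophages, which make them as well, did not and are given below. Other cells left RNA in the GFP+ libraries. Pituitary endocrine markers summed to 4035 to 6747 TPM in the anterior and 345.5 to 3343 TPM in the posterior ones, and erythrocyte markers to 65218 and 7177 TPM in the WT cerebellum ones, the baseline of the WT comparisons. In WT cerebellum, anterior and posterior pituitary, mural cell markers summed to 564.1 to 682.8, 168.6 to 194.9 and 71.95 to 150.8 TPM. Astrocyte markers there summed to 79.56 to 94.39, 443 to 474.9 and 51.82 to 413.3 TPM, with up to 3 of the 4 under 1 TPM. The part of these cells in the WT comparisons was not tested. The GFP+ library of stabilized anterior pituitary, replicate 2, is anterior in its title and source but posterior in its tissue label, and was counted as anterior. The 2 libraries of its group held 4035 to 4626 TPM of the endocrine markers. Stabilized posterior GFP+ libraries held 345.5 to 808.2 TPM and WT posterior ones 473.3 to 3343. WT cerebellum GFP+ replicate 2 held 66.3 TPM of the choroid plexus gene Ttr, against 0 in replicate 1. Cortex bound libraries kept 786 to 1928 TPM of 8 microglia and macrophage markers, and choroid plexus bound libraries kept 11860 to 20010 TPM of 4 epithelial markers, so a bound library is enriched for EC RNA without being free of other cells.

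In WT animals, Fabp4, Gpihbp1 and Fabp5 were higher in ECs of both pituitary lobes than in ECs of the cerebellum, while Lpl, Pparg, Tcf15 and Meox2 were called in neither lobe. Fabp4 and Gpihbp1 stood between 92.2 and 417.1 TPM in pituitary ECs and near 0 in cerebellum ECs. In anterior pituitary ECs, 4 of the 8 members differed from cerebellum ECs (edgeR, adjusted p under 0.05 and a change of 2-fold or more, the rule for every call below), Fabp4, Gpihbp1 and Fabp5 higher and Cd36 lower, where 5.25% of 17900 genes tested were called. In posterior pituitary ECs, the same 4 genes were called and all were higher, where 4.40% of genes were called. The median log2 fold change of the members was 2.63 in the anterior and 6.19 in the posterior comparison, and that of all genes 0 in both. With genes at 0 reads in 1 group set to their bound and Meox2, with 0 reads in both groups of the anterior comparison, left out, the anterior median was 5.25 and the posterior one again 6.19. Between posterior and anterior pituitary ECs, only Cd36 was called, against a background of 0.994%, and it was higher in the posterior lobe. Both comparisons with cerebellum share its WT libraries. Fitted on the compared groups alone, 1 member was called in each, Fabp4 in anterior and Cd36 in posterior pituitary, and with an offset for gene length 2 were called in anterior pituitary, Fabp4 and Gpihbp1.

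Stabilizing beta-catenin called 1 member in 3 EC comparisons, and the direction was a gain. Cd36 appeared in anterior pituitary ECs, where 0.458% of genes were called and the other 7 members were not. None of the 8 was called in cerebellum ECs, where 0.648% of all genes were called. There 3 members had an unadjusted p under 0.05 (edgeR, 9.77% of all genes), and DESeq2 called 2, Cd36 and Fabp5 (4.31% of all genes). A fit with no filter on low counts called 4, Cd36 higher and Gpihbp1, Fabp4 and Fabp5 lower (2.24% of all genes). None was called in posterior pituitary ECs either, where 1.82% of all genes were called. There 0 members had an unadjusted p under 0.05 (edgeR, 12.9% of all genes), and DESeq2 called 0 (6.61% of all genes). The fit with no filter called 2, Gpihbp1 lower and Fabp4 higher (3.77% of all genes). When the response to stabilization was compared between tissues, Cd36 was the member called for anterior pituitary against cerebellum (background 0.520%) and for posterior against anterior pituitary (background 0.128%). No member was called for posterior pituitary against cerebellum (background 0.927%). There 3 members had an unadjusted p under 0.05 (edgeR, 13.8% of all genes), and DESeq2 called 1, Fabp5 (5.88% of all genes). With no filter, Gpihbp1, Fabp4 and Fabp5 were called too for both lobes against cerebellum. That fit called 2.5% of all genes for the anterior and 3.28% for the posterior lobe.

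**Figure D1:**
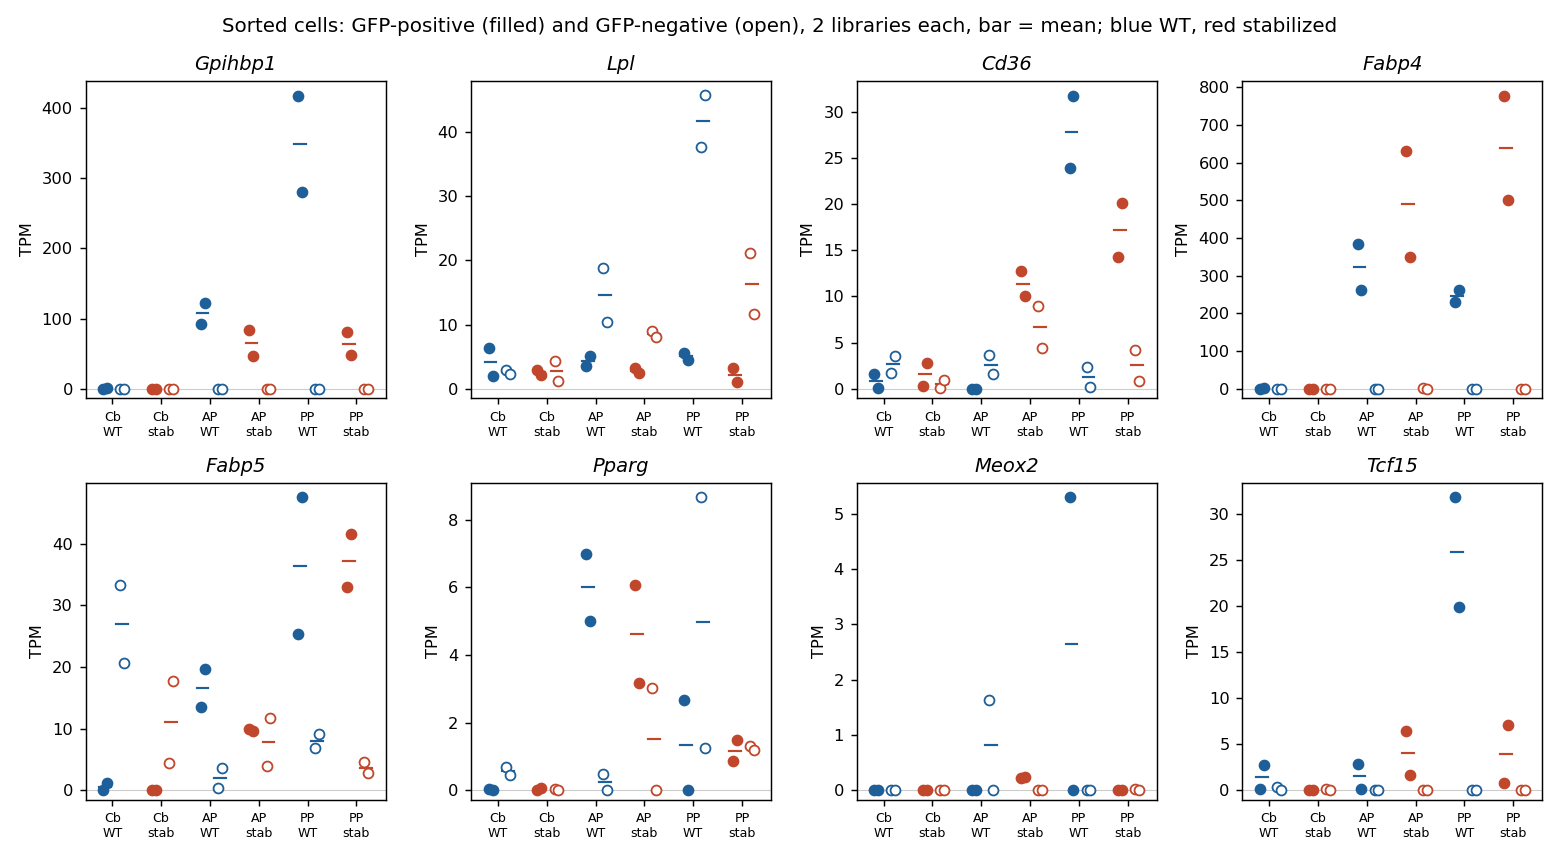
TPM of the 8 members in the sorted libraries (Cb, cerebellum; AP, anterior pituitary; PP, posterior pituitary; stab, stabilized), each point 1 library and each bar the mean of 2. Filled Fabp4 and Gpihbp1 points stand far above the axis in both pituitary lobes and lie near 0 in cerebellum, Cd36 is at 0 in WT anterior pituitary ECs and not in stabilized ones, and the highest Lpl points are open ones, from GFP- cells.

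Gpihbp1 (ENSMUSG00000022579, chr15:75596628-75599481, plus strand, GRCm38) encodes the lipase platform. In WT posterior pituitary ECs it was at 417.1 and 280.2 TPM, in WT anterior pituitary ECs at 92.2 and 122.4, and in WT cerebellum ECs at 0 and 1.21 TPM (0 and 50 reads). Both pituitary groups lie above cerebellum with no overlap, and posterior lies above anterior. Against cerebellum, the log2 difference was 8.03 ± 1.17 (SE) in posterior (edgeR, adjusted p = 0.0012) and 6.58 ± 1.11 in anterior pituitary (adjusted p = 0.00277). Fitted on the compared groups alone, those adjusted p-values were 0.0683 and 0.0674. All 50 reads of the WT cerebellum group came from the library that also held Ttr and lay on the short transcript Gpihbp1-204 (466 bases), and the part of other cells in them was not tested. The posterior and anterior lobes did not differ by the test (log2 1.45 ± 0.86, edgeR adjusted p = 0.499; 0.00893 with no filter on low counts).

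In stabilized animals Gpihbp1 stood at 83.2 and 46.2 TPM in anterior and at 80.1 and 48.0 TPM in posterior pituitary ECs. The posterior libraries thus lie below both WT posterior libraries and inside the range of the stabilized anterior ones. The fall in the posterior lobe (log2 −1.51 ± 0.87) did not pass (edgeR, adjusted p = 0.470; 0.00481 with no filter on low counts), and the anterior difference (−0.71 ± 0.85) did not either (adjusted p = 0.962). The summed endothelial markers moved with the posterior values, from 2363 and 1902 TPM in WT to 599 and 643 TPM in stabilized libraries, and their part in the lower Gpihbp1 was not tested. In anterior pituitary the markers were at 998.5 and 1170 TPM in WT and at 1440 and 1111 in stabilized libraries. In the non-EC fractions Gpihbp1 gave at most 2 reads in any of the 12 GFP- libraries.

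The choroid plexus gave the same gene in a separate kind of library. Bound RNA of WT choroid plexus held Gpihbp1 at 50.35 and 50.63 TPM (507 and 473 reads), its input at 0.99 and 0.69 TPM, and all 8 cortex libraries, bound and input, at 0 reads. Bound and input thus do not overlap, and neither do choroid plexus and cortex. In stabilized choroid plexus the bound level was 5.30 and 9.91 TPM (49 and 116 reads). Those 2 libraries lie below both WT libraries, with a log2 difference of −2.51 ± 0.54, but the change did not pass in edgeR (adjusted p = 0.105; 0.000216 with no filter on low counts) and passed in DESeq2 (adjusted p = 0.00674). Endothelial markers summed to 177.5 and 219.3 TPM in WT and to 325.8 and 231.9 in stabilized bound libraries. Choroid plexus epithelium markers moved with Gpihbp1, from 19020 to 20010 TPM in WT down to 11860 to 13440 TPM in stabilized libraries, while microglia and macrophage markers went from 116.3 to 162.7 TPM up to 267 to 304 TPM. The part of these cells was not tested.

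Lpl (ENSMUSG00000015568, chr8:68880491-68907448, plus strand), the lipase itself, was higher outside the ECs in both pituitary lobes. WT GFP- cells held it at 37.65 and 45.71 TPM in posterior and at 18.75 and 10.34 TPM in anterior pituitary, and the GFP+ cells at 5.65 and 4.42 and at 3.60 and 5.05 TPM. The fractions do not overlap in either lobe. GFP+ cells were lower by log2 −3.60 ± 0.59 in posterior (edgeR, adjusted p = 0.000281) and by −2.39 ± 0.56 in anterior pituitary (adjusted p = 0.00758; 0.114 with an offset for gene length, and lost when any of 3 of the 4 libraries was left out, at up to 0.0873). In cerebellum the 2 fractions overlapped, at 6.42 and 2.01 TPM in GFP+ and 2.89 and 2.29 in GFP- cells. In the WT posterior GFP- libraries the coding transcript Lpl-201 held 23.7 and 30.8 TPM of Lpl. In stabilized animals the same fraction was at 21.2 and 11.6 TPM in posterior and at 8.95 and 8.06 TPM in anterior pituitary, below the WT libraries in both lobes, with no test passed (log2 −0.39 ± 0.53 and 0.09 ± 0.53, edgeR, adjusted p = 0.899 and 1). The 6 pituitary endocrine markers summed to 54004 and 55920 TPM in WT and 27562 and 41295 TPM in stabilized posterior GFP- libraries, moving with Lpl, and to 43447 and 60069 TPM and 33671 and 59828 TPM in anterior ones. Their part was not tested. The fit used reads, of which the stabilized posterior libraries held 3937 and 2165 and the WT ones 6507 and 3550.

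The same GFP- fractions were compared for all members, and stabilization called none of the 8 in cerebellum (background 0.718%, 0 members at an unadjusted p under 0.05), anterior pituitary (background 0.0281%, 1 member) or posterior pituitary (background 0.596%, 0 members). Of all genes, 9.37%, 5.36% and 9.19% had an unadjusted p under 0.05 in these 3 comparisons (edgeR). DESeq2 called 0 of 8 in each, and 4.22%, 1.29% and 3.87% of all genes. In cortex, WT bound RNA held Lpl at 15.3 and 7.26 TPM and stabilized bound RNA at 1.45 and 1.95 TPM. Those groups do not overlap, but the log2 difference of −1.22 ± 0.50 did not pass (edgeR, adjusted p = 0.191; 0.0496 with no filter on low counts). Markers of other cells moved with it. The 8 microglia and macrophage markers summed to 1301 to 1928 TPM in WT and 786.3 to 898.2 in stabilized bound RNA, 5 neuron markers to 1164 to 1402 and 313.9 to 330.9, and 4 oligodendrocyte markers to 1058 to 1113 and 156.6 to 165.9. In cortex input, Lpl itself went from 6.98 ± 0.37 to 1.82 ± 0.40 TPM (SD, n = 2; in reads, log2 −0.33 ± 0.43, edgeR, adjusted p = 0.783), beside neuron markers at 2037 to 2345 TPM in WT and 443 to 602.8 in stabilized input. The part of these other cells was not tested.

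Cd36 (ENSMUSG00000002944, chr5:17781690-17888801, minus strand), the fatty acid receptor, gave the sharpest difference between the lobes. WT posterior pituitary ECs held 23.95 and 31.74 TPM (1549 and 583 reads), WT anterior pituitary ECs 0 TPM (0 reads in both libraries) and WT cerebellum ECs 1.62 and 0.0726 TPM (28 and 8 reads). No library of one group overlaps another, and the order is posterior, cerebellum, anterior. With 3 reads over the group as the floor for a count of 0, Cd36 was at least 953.8-fold higher in posterior than in anterior pituitary ECs (edgeR, adjusted p = 0.000863) and at least 12.8-fold lower in anterior pituitary than in cerebellum ECs (adjusted p = 0.0131). Posterior pituitary exceeded cerebellum by log2 6.21 ± 0.96 (edgeR, adjusted p = 0.00259). With an offset for gene length the last 2 calls were lost (adjusted p = 0.112 and 0.0794), and the low anterior call was also lost without WT anterior replicate 1 (adjusted p = 0.0548).

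In stabilized anterior pituitary ECs Cd36 was at 12.74 and 10.03 TPM (510 and 458 reads), against 0 reads in WT. Both libraries of one genotype thus had the gene and both of the other lacked it, a difference of at least 406.5-fold (edgeR, adjusted p = 0.00238; 0.0514 with the gene length offset). Without the library whose labels conflict the adjusted p was 3.55e-08, with the lone stabilized library assumed to vary like the other groups. In posterior pituitary the stabilized ECs held 14.2 and 20.1 TPM, a log2 difference of −0.05 ± 0.76 from WT (edgeR, adjusted p = 1), and in cerebellum 0.354 and 2.81 TPM (39 and 168 reads; log2 2.99 ± 0.84, adjusted p = 0.227). The response in anterior pituitary differed from that in cerebellum (edgeR, adjusted p = 0.0386) and from that in posterior pituitary (adjusted p = 0.0134). With the gene length offset these became 0.183 and 0.268. The first was 0.241 when only the compared groups were fitted, and rose to as much as 0.0569 without either WT anterior replicate.

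Markers of macrophages, which also make CD36, moved in the same libraries. The 8 markers (Aif1, C1qa, C1qb, Cx3cr1, Csf1r, P2ry12, Mrc1 and Lyz2) summed to 22.7 and 20.3 TPM in WT and 189.5 and 257.6 TPM in stabilized anterior pituitary ECs. In the posterior lobe they went from 1.54 and 1.21 to 289.9 and 239.1 TPM, where Cd36 was called in neither direction. Endothelial markers fell in the same posterior libraries, from 1902 to 2363 TPM in WT down to 599 to 643 TPM in stabilized ones. The part of either cell type in the posterior Cd36 values was not tested. Among the WT libraries, those with the most Cd36 had the fewest macrophage markers, all 8 of them under 1 TPM. C1qa, a complement gene of macrophages, went from 0.263 and 0.0246 TPM to 58.2 and 97.8 TPM in anterior pituitary ECs. The part of macrophages in the anterior gain was not tested.

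Cd36 reads fell on different transcripts in different libraries. In WT posterior pituitary ECs, replicate 1 had 19.9 TPM on Cd36-203 (2677 bases) and replicate 2 had 22.8 TPM on Cd36-205 (702 bases) and 7.54 on Cd36-202. In stabilized anterior pituitary ECs, Cd36-205 held 9.05 and 5.84 TPM. Since Cd36-205 is short, its share bears on TPM and on any fit with an offset for length, and these transcripts are assigned by estimate from 75-cycle single reads.

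**Figure D2:**
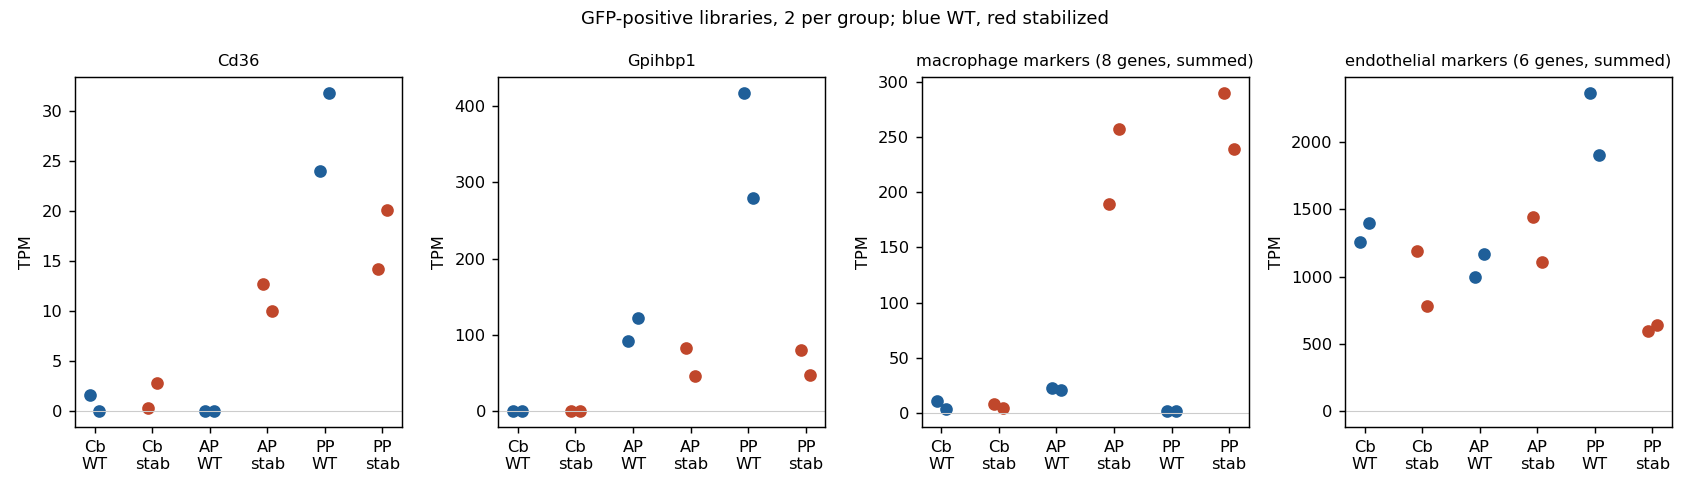
Cd36 and Gpihbp1 (TPM) beside the summed TPM of 8 macrophage and 6 endothelial markers in the 12 GFP+ libraries (abbreviations as in the plot of sorted levels), each point 1 library. Cd36 and the macrophage sum are both higher in stabilized anterior pituitary, while WT posterior pituitary has the highest Cd36, the highest Gpihbp1 and the lowest macrophage sum.

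Fabp4 (ENSMUSG00000062515, chr3:10204088-10208576, minus strand), the adipocyte-type fatty acid binding protein, was the most abundant member in WT anterior pituitary ECs and in stabilized ECs of both lobes, while Gpihbp1 exceeded it in WT posterior ECs. WT anterior pituitary ECs held 384.7 and 261.6 TPM, WT posterior ECs 229.4 and 261.6, and WT cerebellum ECs 0 and 3.28 TPM (0 and 51 reads). The lobes overlap and cerebellum lies far below both. Against cerebellum the log2 difference was 8.15 ± 1.21 in anterior (edgeR, adjusted p = 0.00113) and 7.62 ± 1.19 in posterior pituitary (adjusted p = 0.00202; 0.0838 when only the compared groups were fitted). GFP- cells held at most 26 reads in any of 12 libraries. Stabilized ECs held 630.9 and 349.8 TPM in anterior and 777.7 and 500.6 TPM in posterior pituitary. Both stabilized posterior libraries lie above both WT ones, at log2 1.51 ± 0.89, which did not pass (edgeR, adjusted p = 0.477; 0.000126 with no filter on low counts), and in anterior pituitary the counts gave log2 0.07 ± 0.87 (adjusted p = 1). Macrophages make Fabp4 too, and the macrophage markers given for Cd36 were higher and the endothelial markers given for Gpihbp1 lower in the stabilized posterior libraries. Their part was not tested.

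Gpihbp1 and Fabp4 therefore stood apart in the posterior lobe, one lower and the other higher in both stabilized libraries, with neither change called unless the filter on low counts was dropped. In bound choroid plexus, where Gpihbp1 was at about 50 TPM, Fabp4 was at 0.433 and 0.549 TPM (4 and 5 reads) in WT and at 6.46 and 1.16 TPM in stabilized animals. In cortex bound RNA it gave 0 and 1 reads in WT and 0 and 28 in stabilized libraries. Bound choroid plexus RNA thus held the lipase platform with little Fabp4, while sorted pituitary ECs held both. Bound RNA and sorted cells are different kinds of library, and no fit compared them.

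Fabp5 (ENSMUSG00000027533, chr3:10012548-10016607, plus strand), the epidermal-type binding protein, was shared with other cells. It was at 25.4 and 47.5 TPM in WT posterior and 13.6 and 19.7 TPM in WT anterior pituitary ECs, and at 0 and 1.24 TPM (0 and 31 reads) in WT cerebellum ECs. Pituitary ECs lie above cerebellum ECs in every library. The log2 difference was 6.17 ± 1.35 in posterior (edgeR, adjusted p = 0.0219) and 5.25 ± 1.29 in anterior pituitary (adjusted p = 0.0368). Fitted on the compared groups alone the values were 0.179 and 0.166, and with the gene length offset the anterior one was 0.0779. In cerebellum the GFP- cells held 33.4 and 20.6 TPM, above both GFP+ libraries, and GFP+ cells were lower by log2 −5.89 ± 1.35 (edgeR, adjusted p = 0.0074; 0.0895 with the compared groups alone). Stabilization left it at 9.98 and 9.65 TPM in anterior and 32.9 and 41.5 TPM in posterior pituitary ECs, with no call (log2 −0.80 ± 1.07 and 0.11 ± 1.06). Cortex bound RNA held 28.6 and 21.8 TPM in WT, close to its input at 28.3 and 32.2, and 8.63 and 5.61 TPM in stabilized animals (log2 −1.03 ± 0.77, edgeR, adjusted p = 0.476). The neuron, oligodendrocyte and microglia markers given for Lpl were lower in the same stabilized libraries, and their part was not tested. Bound RNA of WT choroid plexus had 0.458 and 2.93 TPM, lower than cortex by log2 −2.57 ± 0.82 (edgeR, adjusted p = 0.0405; 0.0917 without cortex bound replicate 1 and 0.177 without choroid plexus bound replicate 1, 0.0633 with a replicate block and 0.0650 with the gene length offset). Neuron markers summed to 1164 to 1402 TPM in WT cortex and 11.41 to 14.34 in WT choroid plexus bound RNA. Oligodendrocyte markers summed to 1058 to 1113 and 20.06 to 21.7, and microglia and macrophage markers to 1301 to 1928 and 116.3 to 162.7. The part of these cells was not tested. Fabp5l2, the processed pseudogene of Fabp5, took 2 of all reads in 40 libraries, so little was split between the copies.

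Pparg (ENSMUSG00000000440, chr6:115360951-115490399, plus strand), the nuclear receptor, was low. WT anterior pituitary ECs held 6.99 and 5.00 TPM (159 and 103 reads), WT posterior ECs 2.67 and 0 TPM and WT cerebellum ECs 0.0514 and 0 TPM (3 and 0 reads). In WT anterior ECs all of it lay on Pparg-205, an annotated retained-intron transcript of 915 bases, while in stabilized anterior ECs the coding transcripts Pparg-202 and Pparg-207 held 2.302 and 3.76 TPM in replicate 1 and 2.05 and 1.11 TPM in replicate 2. Stabilized anterior ECs were at 6.06 and 3.16 TPM in sum, which overlaps WT. Anterior pituitary exceeded cerebellum 81.7-fold in reads (95% counting interval 27.6 to 399), but edgeR did not call it (adjusted p = 0.300) and DESeq2 did (adjusted p = 0.0272). Its level was below that of Fabp4 in each of the 8 pituitary EC libraries.

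Tcf15 (ENSMUSG00000068079, chr2:152143561-152149097, plus strand), a bHLH factor of capillary ECs, was highest in WT posterior pituitary ECs. It stood at 31.8 and 19.9 TPM there, at 2.88 and 0.179 in WT anterior and at 0.174 and 2.76 in WT cerebellum ECs, and at 0 reads in all 8 pituitary GFP- libraries. Only the posterior group lies apart. Against the GFP- cells of the same lobe it was at least 215.8-fold higher (edgeR, adjusted p = 0.0422), a call lost when any of the 4 libraries was left out (0.0740 to 0.167), with a replicate block (0.0562) and with the compared groups alone (0.0703). Stabilized posterior ECs held 0.769 and 7.10 TPM, both under the WT libraries, with log2 −1.81 ± 2.01 (edgeR, adjusted p = 0.750). Endothelial markers were lower and macrophage markers higher in those libraries, as given for Gpihbp1 and Cd36, and their part was not tested. Bound RNA of WT choroid plexus held 4.40 and 0.263 TPM (64 and 3 reads) and WT cortex bound RNA 0 reads, at least 52.9-fold lower (edgeR, adjusted p = 0.0302; lost without choroid plexus bound replicate 1 or either cortex replicate, at 0.0951 to 0.331, and with a replicate block, at 0.0650).

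Meox2 (ENSMUSG00000036144, chr12:37108540-37179534, plus strand), the homeobox partner of Tcf15, was hardly found. Among the 12 GFP+ libraries it reached 5.29 TPM (199 reads) in WT posterior pituitary replicate 1, 0.219 and 0.248 TPM in stabilized anterior pituitary and 0 reads in the other 9. WT posterior replicate 2 had 0 reads, so the 2 libraries of that group disagree. Outside these, WT anterior GFP- replicate 1 held 98 reads and WT choroid plexus bound replicate 2 held 31. No comparison called it, and in the RiboTag fits it fell under the filter on low counts, so that 7 of 8 members were tested there.

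Compared with GFP- cells of the same tissue, WT ECs had 2 of 8 members called in cerebellum (background 11.4%), 4 in anterior pituitary (background 11.3%) and 4 in posterior pituitary (background 14.5%). Gpihbp1 was higher in all 3, by at least 2104-fold in anterior pituitary (edgeR, adjusted p = 0.000128). In posterior pituitary it was 13580-fold higher in reads, with a counting interval of 2436 to 536200 since GFP- cells held 1 read. In cerebellum it was 49.6-fold higher in reads, with an interval of 8.51 to 1999 since GFP- cells held 1 read (edgeR, adjusted p = 0.0376), and without WT cerebellum GFP+ replicate 2 the fitted log2 value turned to −2.17 (adjusted p = 0.757), while without GFP- replicate 1 the adjusted p was 0.133. Fabp4 was at least 6381-fold higher in anterior (edgeR, adjusted p = 8.83e-05) and 9366-fold higher in posterior pituitary (interval 1681 to 370000, adjusted p = 0.000115). The members that were lower in ECs were Lpl in both lobes, Fabp5 in cerebellum and, in anterior pituitary, Cd36, which was at least 112.0-fold lower (edgeR, adjusted p = 0.00428; 0.0630 when only the compared groups were fitted). In posterior pituitary Cd36 went the other way (log2 3.23 ± 1.38), which did not pass (edgeR, adjusted p = 0.136). DESeq2 and the fit with no filter on low counts called it there.

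**Figure D3:**
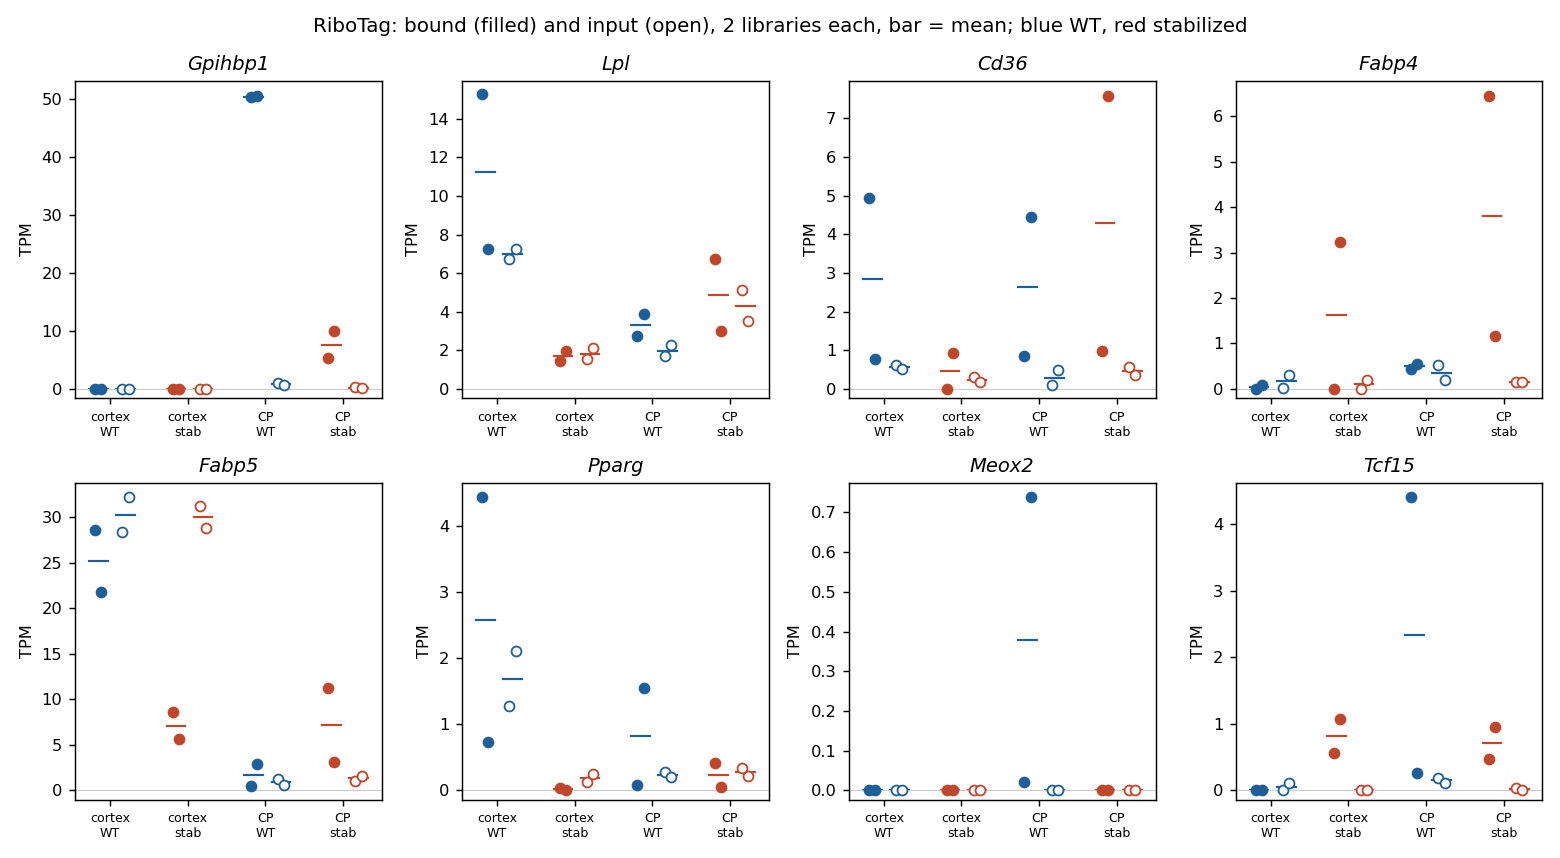
TPM of the 8 members in the RiboTag libraries (CP, choroid plexus; stab, stabilized), bound RNA filled and input open, each point 1 library and each bar the mean of 2. Gpihbp1 stands at about 50 TPM in WT choroid plexus bound RNA, under 10 in the stabilized one and at 0 in cortex, while Fabp5 is highest in cortex and Meox2 stays under 1 TPM.

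In ribosome-bound RNA, 3 of 7 members tested were called between WT choroid plexus and WT cortex, against a background of 29.8%. Gpihbp1 was at least 774.1-fold higher in choroid plexus (edgeR, adjusted p = 0.000149) and Tcf15 was higher too, while Fabp5 was lower. The neuron, oligodendrocyte and microglia markers given for Fabp5 were lower there as well, and their part was not tested. With a replicate block only Gpihbp1 stayed called (0.0650 for Tcf15 and 0.0633 for Fabp5), as it did with the compared groups alone (0.0521 for Fabp5, with Tcf15 not tested). Stabilization called 0 of 7 in cortex (background 6.31%) and 0 of 7 in choroid plexus (background 0.853%). In cortex 3 members had an unadjusted p under 0.05 (edgeR, 22.7% of all genes), and DESeq2 called 1, Tcf15 (10.9% of all genes). In choroid plexus 1 member had an unadjusted p under 0.05 (edgeR, 13.9% of all genes), and DESeq2 called 1, Gpihbp1 (3.7% of all genes). The responses of the 2 tissues differed for 0 of 7 members (background 2.15%). Here 3 had an unadjusted p under 0.05 (edgeR, 17.6% of all genes), and DESeq2 called 0 (6.58% of all genes). Bound RNA differed from input for Gpihbp1 alone in choroid plexus (log2 4.13 ± 0.56, edgeR, adjusted p = 0.000991), where 15.6% of all genes were called. In cortex it differed for 0 of 7 (background 11.7%). There 0 had an unadjusted p under 0.05 (edgeR, 30.7% of all genes), and DESeq2 called 0 (13.7% of all genes). In input RNA, stabilization called 0 of 7 in cortex (background 4.41%) and in choroid plexus (background 0.0823%). An unadjusted p under 0.05 was found for 0 in cortex (edgeR, 19.1% of all genes) and 2 in choroid plexus (2.81%). DESeq2 called 0 in both (6.41% and 0.34% of all genes).

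**Figure D4:**
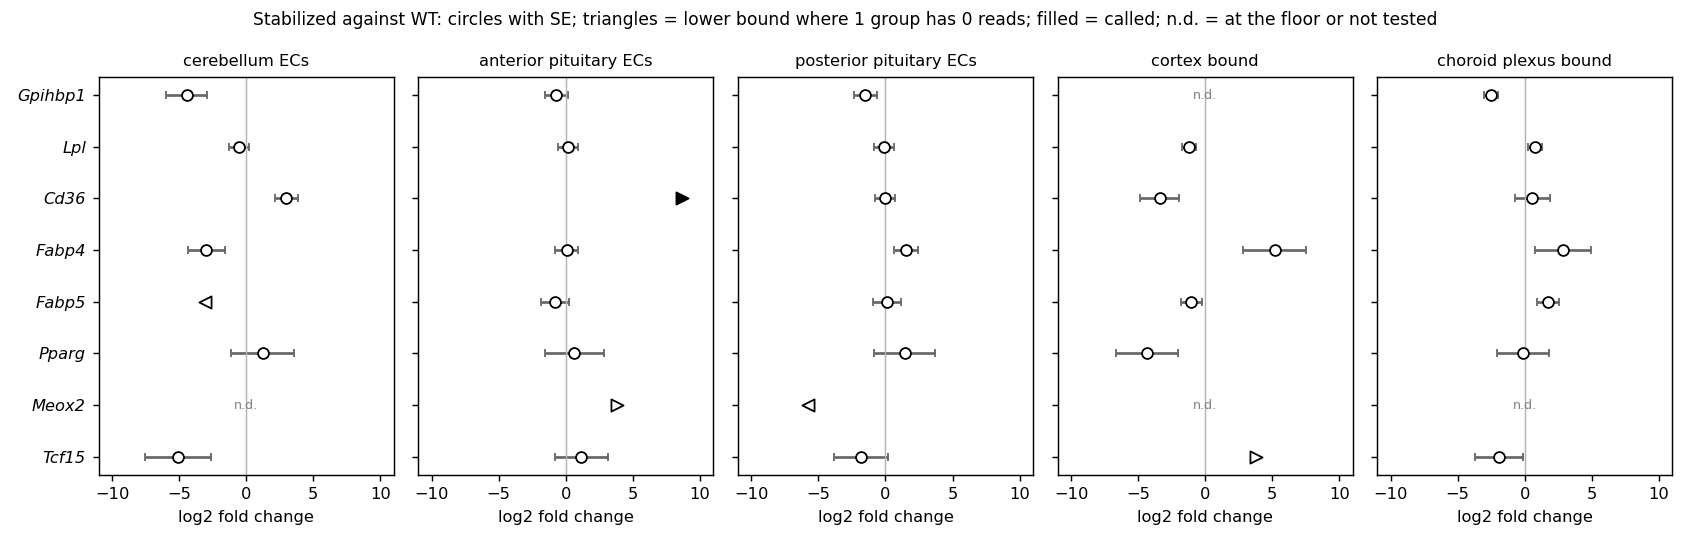
Log2 fold change of each member, stabilized against WT, in 3 sorted EC populations and 2 kinds of bound RNA. Circles carry 1 SE either side, triangles mark the lower bound of a change where 1 group had 0 reads, filled symbols are called and n.d. is at or under 3 reads in both groups or not tested. The sole filled symbol is Cd36 in anterior pituitary ECs, and Gpihbp1 lies left of 0 wherever it was found.

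Other genes of fat handling show what surrounded the members. Of 50 such genes in 7 lists, 47 were tested in ECs. Anterior pituitary ECs had 2 higher and 12 lower than cerebellum ECs in WT, and posterior pituitary ECs had 4 higher and 7 lower, where 5.25% and 4.40% of all genes were called. Scarb1, a receptor for high-density lipoprotein, was higher in both, at 172 and 312 TPM in anterior and 281 and 226 in posterior pituitary against 42.4 and 53.3 in cerebellum (log2 2.27 ± 0.27 and 2.05 ± 0.27, edgeR, adjusted p = 0.000212 and 0.000599). Apoe, the lipoprotein ligand, was higher in anterior pituitary (log2 1.79 ± 0.36, adjusted p = 0.00945), and Nrp1, a co-receptor of VEGF-B, and Mgll, a monoacylglycerol lipase, were higher in posterior pituitary (log2 1.88 ± 0.26 and 1.47 ± 0.31, adjusted p = 0.000691 and 0.0165).

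The genes that were lower in pituitary ECs include barrier genes of lipid transport. Mfsd2a, the lysolipid carrier of the blood-brain barrier, was at 164 and 364 TPM in WT cerebellum ECs and at most 0.0335 TPM in WT pituitary ECs of either lobe (edgeR, adjusted p = 5.98e-07 and 8.33e-07). Lrp8, a lipoprotein receptor, went from 27.8 and 99.7 TPM to 1.03 or less. Between the lobes 4 of the 47 were called, where 0.994% of all genes were called. Cav1, which coats caveolae and assists fatty acid entry, was higher in posterior ECs (360 and 242 against 68.4 and 24.1 TPM, log2 3.42 ± 0.32, edgeR, adjusted p = 0.000151). Flt1, the VEGF-B receptor (1.81 ± 0.30), and Lrp1 (2.29 ± 0.42) were higher too, while Apoe was lower (−2.11 ± 0.36). The summed endothelial markers were also higher, at 1902 to 2363 TPM in WT posterior and 998.5 to 1170 in WT anterior ECs. Their part was not tested. In these lists the WT pituitary thus lacked Mfsd2a where it had Fabp4 and Gpihbp1.

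Stabilization called 2 of the 47 in anterior and 3 in posterior pituitary ECs, where 0.458% and 1.82% of all genes were called. In anterior pituitary ECs both rose, Mfsd2a, from 0 and 0.0176 to 12.0 and 15.5 TPM (edgeR, adjusted p = 2.24e-05), and Lrp1, which macrophages also make (log2 2.48 ± 0.42, adjusted p = 0.0211). The macrophage markers given for Cd36 were higher in the same libraries, and their part was not tested. In posterior pituitary ECs Mfsd2a rose from 0 and 0.0335 to 82.5 and 44.4 TPM (edgeR, adjusted p = 2.6e-06), and 2 fell, Mgll (−1.99 ± 0.32, adjusted p = 0.00816) and Nrp1 (−1.72 ± 0.25, adjusted p = 0.00447). Endothelial markers were lower and macrophage markers higher in those libraries, as given above, and their part was not tested. In cerebellum ECs edgeR called 0 of the 47, where 0.648% of all genes were called. An unadjusted p under 0.05 was found for 5 of them (edgeR, 9.77% of all genes), and DESeq2 called 1 (4.31% of all genes). Bound choroid plexus RNA gave 1 rise of 50 (background 0.853%), Mfsd2a again, from 1.05 and 0.305 to 27.0 and 29.6 TPM (log2 5.95 ± 0.49, edgeR, adjusted p = 0.00171), in the libraries where Gpihbp1 was lower. In bound cortex RNA, where 6.31% of all genes were called, 8 of 50 rose and 1 fell, among them Ppard, another PPAR (2.66 ± 0.31), and Acsl4, an acyl-CoA synthetase (−1.43 ± 0.31), beside the lower neuron, oligodendrocyte and microglia markers given for Lpl, whose part was not tested.

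ATAC-seq of the GFP+ cells showed where chromatin at the members was open. Peaks enriched more than 2-fold with a −log10 q above 2 were kept, and those found in both libraries were counted for their group. From 20 kb before to 20 kb after the 8 genes, WT ECs had 4 such peaks in cerebellum, 22 in anterior and 9 in posterior pituitary, where the groups held 20617, 33479 and 17941 peaks over the whole genome. At the start sites (within 1 kb), Fabp5 and Tcf15 had a peak in all 12 libraries. Pparg had one in all 8 pituitary libraries and in none of 4 from cerebellum, at fold enrichments of 5.76 to 14.6. Fabp4 had one in WT anterior (3.38 and 3.91), stabilized anterior (6.19 and 6.39) and stabilized posterior pituitary (4.03 and 3.71), and none in WT posterior pituitary or cerebellum. Across protein-coding genes, 52.2% to 60.4% had a start-site peak in a library, so a peak at Fabp5 or Tcf15 is no distinction. At Gpihbp1, Lpl and Cd36 the start sites were without a peak in all but 1, 1 and 2 libraries.

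At Gpihbp1 the peak that separated the tissues lay 3.5 kb upstream, in all 8 pituitary libraries and in none from cerebellum. Its fold enrichments were 8.22 and 12.9 in WT anterior, 11.6 and 13.2 in stabilized anterior, 4.19 and 5.16 in WT posterior and 7.78 and 6.10 in stabilized posterior pituitary. A peak about 20 kb downstream was open in every group, cerebellum included. Stabilization thus left the upstream peak in place in the posterior lobe, where the RNA was lower in both libraries. At Cd36 a peak in an intron was gained in stabilized anterior pituitary (5.61 and 8.57) and absent from both WT libraries, in the population where its RNA appeared. At Fabp4, 2 peaks were gained in stabilized posterior pituitary, at the start and 3.2 kb upstream, and 1 peak 5.4 kb upstream was lost in anterior pituitary. In RNA of GFP+ cells, the macrophage markers given for Cd36 were higher in stabilized animals in both lobes. The part of macrophages in the peaks gained at Cd36 and Fabp4 was not tested. Over the 8 members, 1, 1 and 3 peaks were gained and 0, 4 and 0 lost in cerebellum, anterior and posterior pituitary. Over the whole genome, each stabilized group held more peaks found in both libraries than its WT group. The totals were 28955 against 20617 in cerebellum, 36877 against 33479 in anterior and 27267 against 17941 in posterior pituitary. Peaks gained are to be read with these totals, whose part was not tested. The share of all peaks gained or lost was not counted, so the counts at the members stand without a background.

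The 3 regions are shown because they carry these differences. Each window reaches 100 bases to either side of the peak summit on the plus strand of GRCm38, with matches to the TCF/LEF motif in capitals. TCF/LEF factors are the DNA-binding partners of beta-catenin, and the motif was sought as TTCAAAG or ATCAAAG on both strands within 100 bases of each summit. The Gpihbp1 and Fabp4 windows lie outside annotated genes and the Cd36 window lies in an intron of Cd36.
Gpihbp1, chr15:75593010-75593210, open in all 8 pituitary libraries: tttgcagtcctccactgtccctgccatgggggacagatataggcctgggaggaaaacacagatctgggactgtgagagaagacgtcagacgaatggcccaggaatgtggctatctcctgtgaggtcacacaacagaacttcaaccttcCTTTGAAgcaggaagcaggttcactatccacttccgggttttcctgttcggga
Fabp4, chr3:10211878-10212078, open in anterior pituitary and gained near it in stabilized posterior pituitary: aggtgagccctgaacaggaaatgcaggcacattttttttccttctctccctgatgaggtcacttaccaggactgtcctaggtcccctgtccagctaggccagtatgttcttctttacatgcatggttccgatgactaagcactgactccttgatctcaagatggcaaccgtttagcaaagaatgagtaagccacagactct
Cd36, chr5:17854508-17854708, gained in stabilized anterior pituitary: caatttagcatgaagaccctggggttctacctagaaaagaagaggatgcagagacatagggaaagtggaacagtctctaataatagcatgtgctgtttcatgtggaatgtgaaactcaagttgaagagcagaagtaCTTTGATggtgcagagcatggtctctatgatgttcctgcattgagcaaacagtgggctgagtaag

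The Gpihbp1 match is at 75593158 to 75593164 and the Cd36 match at 17854644 to 17854650, both on the minus strand. No other peak at the 8 members had one. Over all group peaks, 3.04% (WT posterior pituitary) to 9.65% (stabilized cerebellum) held the motif, 6.46% of those in stabilized anterior pituitary. The direct repeat that PPAR and RXR bind, AGGNCA repeated directly with 1 base between, was in no peak of a member and in 0.217% to 0.418% of all peaks. A match is a description of letters and not a site in use.

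The RefSeq promoter table (GRCm38.p6) matched 3 of the 8 members, Cd36, Meox2 and Pparg. The first Pparg promoter is shown since its peak parts the pituitary from the cerebellum, with the nuclear receptor motif AGGTCA (both strands searched) in capitals. It covers chr6:115360894-115361193 on the plus strand, from 250 bases before to 50 after the start that RefSeq gives this transcript, which lies downstream of the gene start given above. The motif was in 16.3% of 32851 promoters of that length.
Pparg: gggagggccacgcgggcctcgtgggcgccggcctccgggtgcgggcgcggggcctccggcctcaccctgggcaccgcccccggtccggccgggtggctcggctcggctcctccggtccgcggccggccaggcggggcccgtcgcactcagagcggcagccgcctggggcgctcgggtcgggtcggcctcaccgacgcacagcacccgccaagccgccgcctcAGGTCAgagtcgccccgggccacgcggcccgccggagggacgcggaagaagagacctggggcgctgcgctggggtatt

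**Figure D5:**
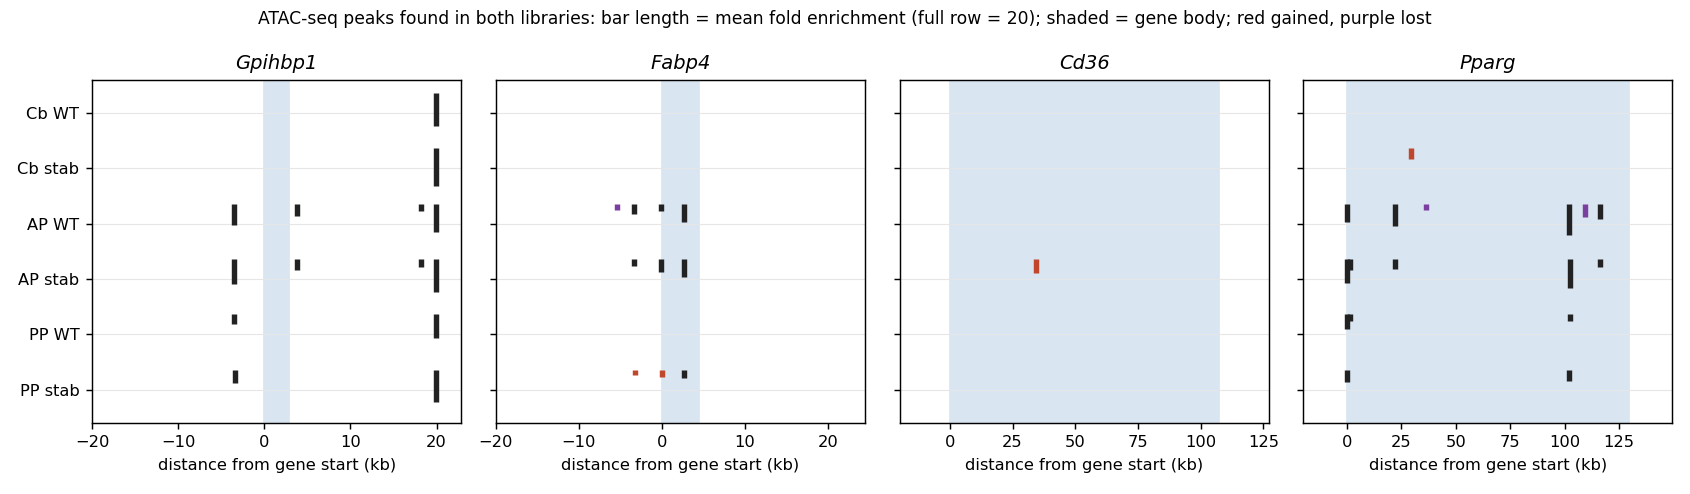
ATAC-seq peaks at Gpihbp1, Fabp4, Cd36 and Pparg by distance of the summit from the gene start (kb, negative upstream), 1 row per group of 2 libraries (abbreviations as in the plot of sorted levels). Bars hang from the top of each row with a length equal to the mean fold enrichment, gene bodies are shaded, and gained and lost peaks are red and purple. The upstream Gpihbp1 bar is in all 4 pituitary rows and neither cerebellum row, and the red Cd36 bar is in stabilized anterior pituitary.

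The genes whose levels were most like a member's over the 12 sorted groups were found by Pearson's r of log2(mean TPM + 1), among 11346 genes reaching a group mean of 10 TPM. The 12 groups share tissues and genotypes, and r is given as a description. For Gpihbp1 they were Ces2e (0.991), Lbx2 (0.990) and Exoc3l2 (0.989). For Fabp4 they were Plvap (0.988), which encodes the diaphragm protein of leaky vessels, Fam167b (0.987) and Dram1 (0.980). For Tcf15 they were Stc1 (0.961), Tmem200b (0.952) and Cd300lg (0.947). For Lpl they were Drd2 (0.975), the dopamine receptor of pituitary cells, Zfp92 (0.973) and Pdyn (0.969). Fabp5 followed Thrsp, Maf and Irf8 less closely (0.887, 0.874 and 0.860), and Cd36 followed Plau, Gm6311 and Tradd (0.883, 0.878 and 0.849). Pparg and Meox2 reached 10 TPM in no sorted group and were left out. A pseudocount of 0.1 kept 1 of the 3 genes for Gpihbp1, 2 for Fabp4, 2 for Fabp5, 1 for Cd36 and 0 for Tcf15 and Lpl, and a minimum of 1 TPM in place of 10 kept 3, 2, 3, 0, 0 and 2 for Gpihbp1, Fabp4, Fabp5, Cd36, Tcf15 and Lpl. These names thus depend on the pseudocount and the minimum.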

How the data were processed

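RNA-seq (40 libraries) and ATAC-seq (12) were taken as deposited. The authors estimated transcript abundance with Salmon 0.10.2 from single-end reads of 75 cycles, with bias corrections and an Ensembl mouse transcriptome (GRCm38), and the deposited tables give estimated counts and TPM per transcript. For ATAC-seq the authors aligned with Bowtie2 2.3.2 and called peaks per library with MACS2 2.1.1.20160309, and the deposited peak lists give a fold enrichment and a −log10 q.

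Transcripts were summed to genes by their GENCODE names on GRCm38. Estimated counts were rounded and fitted in edgeR 4.0.16 (R 4.3.3) by quasi-likelihood with TMM normalization, its filter on low counts and 1 coefficient per group, in 4 fits: the 12 GFP+ libraries, all 24 sorted, the 8 bound and all 16 RiboTag libraries. P-values were Benjamini-Hochberg adjusted over all genes tested. Genes changed at least 2-fold were called where the adjusted p was under 0.05. Bounds against 0 reads used a floor of 3 reads over the group, and intervals are exact 95% ones that cover counting error only. Peaks shared by replicates overlapped by 1 base or more. The fits were tested on simulated data with 200 changes put into 1 comparison per fit. The fit of GFP+ libraries recovered 38.5% of them and that of all sorted libraries 17.5%. The fit of bound libraries recovered 51.0% and that of all RiboTag libraries 67.5%. A change not called is thus not shown to be absent. Samples were grouped by their labels. Alternatives were DESeq2 1.42.0, RLE scaling, no filter on low counts, an offset for gene length, a replicate block, fits of the compared groups alone, each library left out, and other peak thresholds and windows.

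Members, gene lists and tests were chosen with earlier results of these data known. The named genes are the 8 members and, from the other lists, up to 3 rises and 3 falls per comparison that reached 10 TPM in both libraries of the higher group.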

Additional observations from a re-analysis of the deposited data

Results flagged for a closer look

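The response of Cd36 to beta-catenin stabilization differed between EC populations. The gain in anterior pituitary ECs differed from the response in cerebellum ECs (edgeR interaction term, adjusted p = 0.03858) and from that in posterior pituitary ECs (adjusted p = 0.01344). Both calls were lost with the gene length offset (0.183 and 0.268), and the first also when only the compared groups were fitted (0.241) and without either WT anterior replicate (up to 0.0569). Both libraries of stabilized anterior pituitary held the gene (510 and 458 reads) and both WT libraries had 0 reads. Macrophage markers were higher in stabilized ECs of both pituitary lobes, and endothelial markers were lower in those of the posterior lobe. The part of these cells in the Cd36 difference was not tested.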

How the results depend on the processing

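Over 176 values of members in comparisons, RLE scaling changed no call, DESeq2 added 9, no filter on low counts added 20, and the gene length offset ended 8. Of 128 values fitted on the compared groups alone, 10 lost their call and 2 gained one. Of 828 values with 1 library left out, 16 lost a call, 15 gained one and 1 reversed: Gpihbp1 in WT cerebellum GFP+ against GFP- cells, at log2 −2.17 without GFP+ replicate 2 (−2.17 to 7.72 over the libraries left out). The cause of these moves was not tested.

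DESeq2 added Pparg for WT anterior pituitary against cerebellum ECs. For GFP+ against GFP- cells it added Fabp4 in cerebellum, Tcf15 in anterior and Cd36 in posterior pituitary. The fit with no filter added that Fabp4 and that Cd36. The offset ended Cd36 for WT posterior pituitary against cerebellum ECs and Lpl for anterior GFP+ against GFP- cells. The compared groups alone ended Cd36 in anterior and Tcf15 in posterior GFP+ against GFP- cells. The number of members called also moved as follows, in a list that is not complete. With the gene length offset it was 2 for WT anterior pituitary against cerebellum ECs, and 0 for stabilized against WT anterior pituitary ECs and for the response of anterior pituitary against cerebellum and of posterior against anterior pituitary. With the compared groups alone it was 1 for each WT lobe against cerebellum, for WT choroid plexus against cortex bound RNA, for stabilized choroid plexus bound RNA and for stabilized cortex input, and 0 for the response of anterior pituitary against cerebellum and for cerebellum GFP+ against GFP- cells. With DESeq2 it was 2 for stabilized cerebellum ECs, and 1 for the response of posterior pituitary against cerebellum and for stabilized cortex and choroid plexus bound RNA. With no filter it was 4 for stabilized cerebellum ECs and for the response of anterior pituitary against cerebellum, 3 for that of posterior pituitary against cerebellum, 2 for WT posterior against anterior pituitary and for stabilized posterior pituitary ECs, and 1 for stabilized anterior GFP- cells, cortex bound, choroid plexus bound, cortex input and the response of choroid plexus against cortex. With 1 library left out, counts ranged from 0 to 3 for stabilized cerebellum ECs (3 without WT replicate 1), from 0 to 4 for the response of anterior pituitary against cerebellum (4 without WT cerebellum replicate 1), from 0 to 3 for that of posterior pituitary against cerebellum, from 1 to 3 for cerebellum GFP+ against GFP- cells and for choroid plexus against cortex bound RNA, and from 0 to 1 for stabilized choroid plexus bound RNA and for its response against cortex.

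By the study's methods the GFP+ and GFP- cells of a tissue come from 1 dissociated pool, and bound and input RNA from 1 homogenate, while the labels do not say that the replicate numbers match these. Same-numbered replicates were not otherwise shown to pair: correlations of their deviations ran from −0.0287 to 0.0907 over 66 pairs of sorted groups and from −0.177 to 0.144 over 28 pairs of RiboTag groups. With the replicate block, 3 of 176 values lost their call, Tcf15 in posterior pituitary GFP+ against GFP- cells (edgeR, adjusted p = 0.0562) and Tcf15 and Fabp5 in choroid plexus against cortex bound RNA (0.0650 and 0.0633), leaving 1 member called for choroid plexus against cortex bound RNA.

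Over all genes, calls for stabilized against WT ECs of cerebellum, anterior and posterior pituitary numbered 116, 82 and 326. They numbered 772, 496 and 1184 with DESeq2, 567, 443 and 952 with no filter, 59, 52 and 164 with the gene length offset, and 6, 82 and 106 with the compared groups alone. For WT anterior and posterior pituitary against cerebellum and posterior against anterior pituitary ECs, 940, 787 and 178 became 1815, 1744 and 1032 with DESeq2, 1494, 1392 and 739 with no filter, 613, 505 and 91 with the offset, and 843, 345 and 57 with the compared groups alone. Within 100 kb of the members, WT peaks numbered 19, 55 and 21 and gained peaks 5, 4 and 10 in the same order. At a fold enrichment and −log10 q over 4, 2 peaks were gained and 2 lost in anterior and 1 gained in posterior pituitary. Meox2, Pparg and Tcf15 had few or no reads in many libraries, and whether more depth would change their calls was not tested.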
